A study of Homo sapiens with 6 samples.

Results

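The genes described here encode the proteasome, the protease complex that degrades ubiquitin-tagged proteins, and the proteins that assemble or cap it. They are the protein-coding genes whose symbol begins with PSMA, PSMB, PSMC, PSMD, PSME, PSMF or PSMG followed by a number, leaving out PSMB8 and PSMB9. The rule took 48 of the 60664 genes in the table, of which 19966 are protein-coding, and used names only. By role they comprised the 14 standard subunits of the core particle, the 17 subunits of the regulatory particle that carry a PSM symbol, and 17 others: tissue-specific core subunits, assembly chaperones, activators, 1 inhibitor and 2 binding partners that are not subunits.

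RNA was sequenced from HCT8, a line labelled as colorectal cancer, in 3 libraries of cells that received a plasmid for KDM4A overexpression and 3 libraries of cells that received a control plasmid. KDM4A is a histone demethylase. All 6 libraries carry the label of batch 1; the genotype label is KDM4A-overexpressing for the KDM4A plasmid libraries and WT for the control libraries. The time after transfection, the plasmid backbone and the number of cultures behind each group were not given in the sources used here. A p-value here therefore reflects the spread among these 6 libraries, which may be technical.

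In the cell, the core particle is a barrel of stacked rings: alpha subunits form the outer rings and gate the entry, and beta subunits form the inner rings, where PSMB5, PSMB6 and PSMB7 cut peptide bonds. The regulatory particle sits on the barrel's end. Its base holds a ring of ATPases that unfold the substrate, and its lid removes the ubiquitin chain. When proteasome activity falls, many of these genes are known to be induced together by the transcription factor NRF1, encoded by NFE2L1, which binds antioxidant response elements with small MAF proteins.

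KDM4A was at 152, 157 and 160 CPM (counts scaled to library size with TMM factors) in the KDM4A plasmid libraries, against 42.8, 45.8 and 45.2 CPM in the control libraries. Library totals were 14284240 to 23905980 counts with the KDM4A plasmid and 18380500 to 22990881 with the control plasmid. Of 17147 genes tested by quasi-likelihood in edgeR (threshold of 0.05 on Benjamini-Hochberg adjusted p), 40.0% were higher and 38.6% were lower in the KDM4A plasmid libraries, and for 79.7% the groups of libraries did not overlap. The median log2 fold change of all tested genes was 0.03. Markers of cell type moved too. All 8 epithelial markers were higher, with summed levels of 3444 to 3698 CPM in the KDM4A plasmid libraries and 254 to 271 CPM in the control libraries, although both groups carry the label of the same colorectal line. All 5 genes of a list for embryonic kidney and neural lines (IRS4, PAX2, NEFM, NEFL and LIN28B) were lower, at summed levels of 491 to 521 CPM with the KDM4A plasmid and 2498 to 2878 CPM with the control plasmid. Of 5 mesenchymal markers, 1 was higher and 4 were lower, at 585 to 619 CPM summed with the KDM4A plasmid and 658 to 728 CPM with the control plasmid. The 4 blood cell markers summed to 2.24 to 2.82 CPM with the KDM4A plasmid and 0.613 to 1.37 CPM with the control plasmid, with CD14 called higher (40, 46 and 38 counts with the KDM4A plasmid and 14, 13 and 12 with the control plasmid) and PTPRC, CD3E and MS4A1 too low to test. The part of these shifts in the values below was not tested, and in bulk RNA a change in the mix of cells and a change in RNA per cell cannot be told apart. Nor can a difference of cell line between the groups be told apart from an effect of the plasmid in this design, and every fold change below is one between these libraries.

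Of the 48 genes, 46 passed the filter on low counts. In the KDM4A plasmid libraries 38 of these were higher, beside 40.0% of all tested genes, and 4 were lower, beside 38.6%. The 4 lower genes were PSMD10, PSME4, PSMG4 and PSMC3IP, none of them a structural subunit. PSMA2, PSMD12, PSMD9 and PSME3IP1 did not pass the test, and PSMA8 and PSMB11 were not tested. For 43 of the 46, the libraries of the groups did not overlap, beside 79.7% of all tested genes. All 48 genes together took 0.811%, 0.810% and 0.810% of the counts of the KDM4A plasmid libraries, against 0.574%, 0.560% and 0.602% in the control libraries. Their share was thus higher in every KDM4A plasmid library than in any control library.

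The DNA upstream of 5 members is printed below. They include large rises (PSMD5, PSME1 and, the largest among standard core subunits, PSMB3). They also include a regulatory particle subunit that did not pass the test (PSMD12) and an activator that fell (PSME4). All 5 hold the letters TGACNNNGC, which lay in a promoter window of only 14 of 42 members, so they are not typical in this respect. PSMB10, with a larger rise than PSME1, and PSMG4, with the largest fall, hold no such match and are not shown. Each run holds the 250 bases upstream of the gene's start in RefSeq on GRCh38.p14, read 5′ to 3′ on the gene's strand: chr9:120842923-120843172 (minus strand) for PSMD5, chr17:38752491-38752740 (plus) for PSMB3, chr14:24135944-24136193 (plus) for PSME1, chr17:67366578-67366827 (minus) for PSMD12 and chr2:53970994-53971243 (minus) for PSME4. Capitals mark the antioxidant response element letters TGACNNNGC and the box CCAAT, on either strand.
PSMD5: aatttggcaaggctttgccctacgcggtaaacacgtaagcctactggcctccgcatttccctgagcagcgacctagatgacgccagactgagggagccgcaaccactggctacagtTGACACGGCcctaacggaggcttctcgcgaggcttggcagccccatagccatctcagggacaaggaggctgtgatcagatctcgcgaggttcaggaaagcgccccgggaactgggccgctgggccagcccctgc
PSMB3: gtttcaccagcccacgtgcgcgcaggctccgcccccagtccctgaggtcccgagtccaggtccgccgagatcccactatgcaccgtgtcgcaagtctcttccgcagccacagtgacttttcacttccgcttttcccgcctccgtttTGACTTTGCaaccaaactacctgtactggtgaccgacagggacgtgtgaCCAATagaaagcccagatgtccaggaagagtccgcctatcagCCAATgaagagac
PSME1: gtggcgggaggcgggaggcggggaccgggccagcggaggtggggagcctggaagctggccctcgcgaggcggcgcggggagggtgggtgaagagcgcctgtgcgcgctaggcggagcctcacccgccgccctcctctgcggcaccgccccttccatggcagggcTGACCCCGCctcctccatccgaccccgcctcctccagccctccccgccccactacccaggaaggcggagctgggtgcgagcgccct
PSMD12: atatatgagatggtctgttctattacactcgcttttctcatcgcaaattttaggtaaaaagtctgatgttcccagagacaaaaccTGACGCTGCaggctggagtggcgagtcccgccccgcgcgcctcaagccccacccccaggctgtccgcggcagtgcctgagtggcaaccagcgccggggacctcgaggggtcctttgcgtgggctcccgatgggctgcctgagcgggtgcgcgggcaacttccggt
PSME4: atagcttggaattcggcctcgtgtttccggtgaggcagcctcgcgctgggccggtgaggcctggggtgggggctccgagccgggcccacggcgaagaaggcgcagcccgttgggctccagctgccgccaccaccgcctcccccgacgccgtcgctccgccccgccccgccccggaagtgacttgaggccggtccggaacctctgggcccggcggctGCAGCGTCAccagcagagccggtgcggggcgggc

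Promoter windows from 250 bases upstream to 50 bases downstream of a start were available for 42 of the 48 genes. PSMA7, PSMB1, PSMB6, PSMB7, PSMD4 and PSMG3 had none in the table used. TGACNNNGC lay in a window of 14 of the 42 (33.3%), against 16.1% of all 27305 genes in the promoter table and 19.2% of 10959 tested protein-coding genes. By particle it lay in 2 of 10 core genes, 5 of 16 regulatory particle genes and 7 of 16 others. CCAAT lay in 21 of the 42 (50%), against 39.7% of all genes and 43.3% of the tested protein-coding ones, and in 7 of 10 core genes and 8 of 16 regulatory particle genes. No TGACNNNGC match overlapped a CCAAT match (0 in 52 windows). Among the sequences shown, PSMD5 holds TGACNNNGC at positions -134 to -126 from the start, PSME1 at -86 to -78, PSMD12 at -165 to -157 and PSME4, on the other strand, at -34 to -26. PSMB3 holds it at -104 to -96 and CCAAT at -55 to -51 and at -13 to -9. The element was present with each outcome: in 11 of 32 genes that were higher, 1 of 4 that were lower and 2 of 4 that did not pass. Such matches describe letters and not bound sites.

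The core particle rose almost as a whole. Of its 14 standard subunits, 13 were higher in the KDM4A plasmid libraries (40.0% of all tested genes), and the exception was PSMA2. None was called lower: the count was 0 in edgeR, 0 at an unadjusted p under 0.05, and 0 in DESeq2 and limma-voom. The median log2 fold change was 0.75 (1.69-fold), against 0.03 for all tested genes and 0.04 for tested protein-coding genes. Of the 14, 11 changed by at least 1.5-fold and 3, namely PSMA1, PSMB3 and PSMB6, by at least 2-fold. In all 14 the libraries of the groups did not overlap, beside 79.7% of all tested genes.

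The catalytic subunits were among those that rose. PSMB6 (beta1, the caspase-like site; ENSG00000142507, chromosome 17, 4796144 to 4798502, plus strand, GRCh38.p13) had 128, 146 and 147 CPM in the KDM4A plasmid libraries, against 70.2, 65.8 and 65.6 CPM in the control libraries. Its log2 fold change was 1.06 (SE 0.06, edgeR adjusted p = 4.13e-11). PSMB5 (beta5, the chymotrypsin-like site and the main target of proteasome inhibitors; chromosome 14, 23016543 to 23035230, minus strand) had 156, 176 and 168 CPM with the KDM4A plasmid and 93.3, 88.4 and 82.5 CPM with the control plasmid, for a log2 fold change of 0.92 (edgeR adjusted p = 2.24e-10, SE 0.06). For both genes every KDM4A plasmid library lay above every control library. PSMB7 (beta2, the trypsin-like site; chromosome 9, 124353465 to 124415444, minus strand) had 278, 269 and 283 CPM in the KDM4A plasmid libraries, against 160, 153 and 185 CPM in the control libraries, for a log2 fold change of 0.73 (edgeR adjusted p = 9.90e-09, SE 0.06). The highest control library of PSMB7 still lay below the lowest KDM4A plasmid library.

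Among the non-catalytic beta subunits, PSMB3 (beta3; chromosome 17, 38752741 to 38764225, plus strand) showed the largest rise of any standard core subunit. It had 192, 192 and 191 CPM with the KDM4A plasmid and 80.7, 70.9 and 80.1 CPM with the control plasmid, for a log2 fold change of 1.31 (edgeR adjusted p = 8.89e-13, SE 0.06). The KDM4A plasmid libraries were nearly equal for this gene, with an SD of 0.217 CPM. PSMB4 (beta7) and PSMB1 (beta6) rose by 0.69 and 0.66 on the log2 scale, and PSMB2 (beta4) by 0.40. Thus 7 of 7 beta subunits were higher, beside 40.0% of all tested genes, with a median log2 fold change of 0.73.

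Of the 7 alpha subunits, which gate the barrel, 6 were higher, beside 40.0% of all tested genes. Their median log2 fold change was 0.78. PSMA1 (alpha6; chromosome 11, 14504874 to 14643635, minus strand) had 53.6, 41.5 and 45.8 CPM in the KDM4A plasmid libraries and 21.3, 19.6 and 25.6 CPM in the control libraries, for a log2 fold change of 1.08 (edgeR adjusted p = 7.57e-08, SE 0.10). PSMA7 (alpha4; chromosome 20, 62136733 to 62143440, minus strand) had 299, 294 and 309 CPM with the KDM4A plasmid, against 146, 147 and 161 CPM with the control plasmid, for a log2 fold change of 0.99 (edgeR adjusted p = 1.91e-11, SE 0.05). Neither gene's groups overlapped. PSMA5, PSMA3, PSMA6 and PSMA4 rose by 0.86, 0.78, 0.60 and 0.52 on the log2 scale. PSMA2 (alpha2) had 2.44, 2.79 and 2.75 CPM with the KDM4A plasmid and 3.27, 3.45 and 3.02 CPM with the control plasmid. It lay lower in each KDM4A plasmid library than in any control library, but the fit did not call it (log2 fold change -0.28, SE 0.15, edgeR adjusted p = 0.104). With the length trend removed PSMA2 was called lower (-0.59, edgeR adjusted p = 0.00217) and PSMA6 was not called (0.28, edgeR adjusted p = 0.0678).

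**Figure D1:**
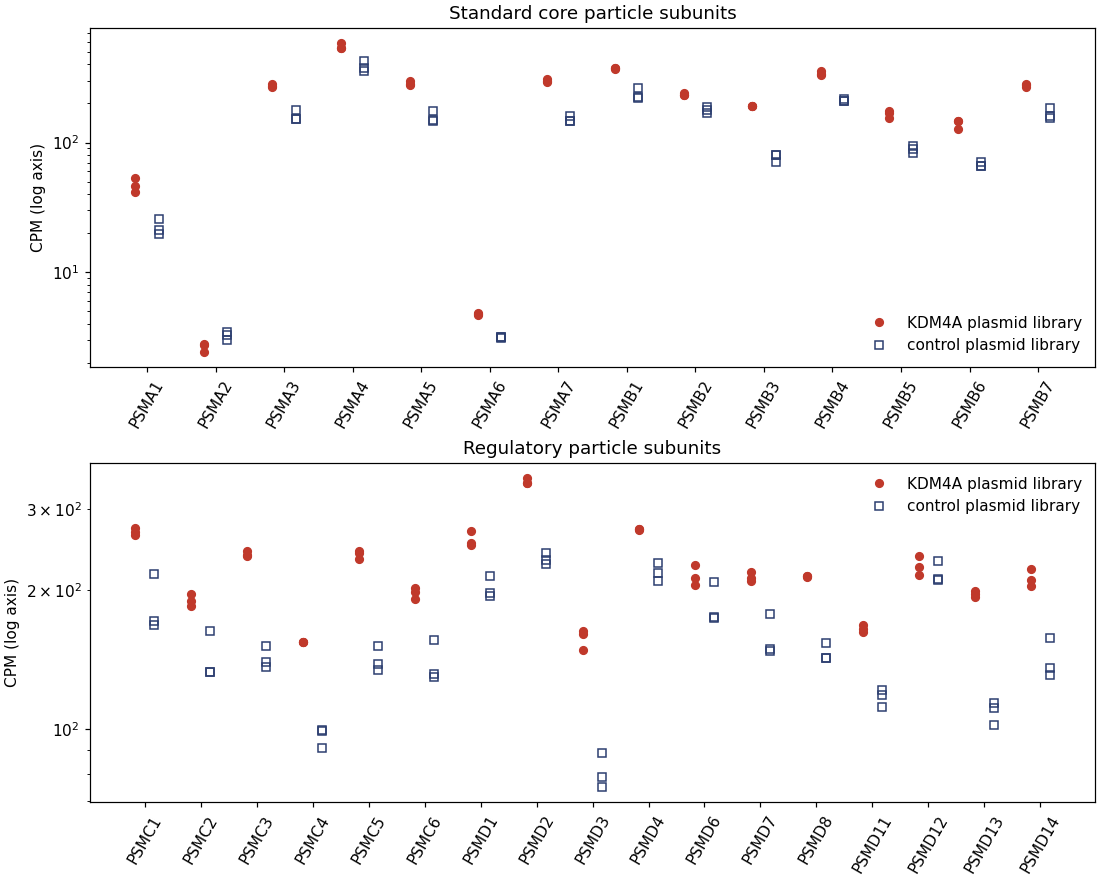
CPM of each standard core subunit (upper panel) and each regulatory particle subunit (lower panel) on a log axis, with filled circles for the 3 KDM4A plasmid libraries and open squares for the 3 control libraries. The groups are apart for all 14 core subunits and for 15 of 17 regulatory particle subunits.

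The plot of CPM by library shows the separation gene by gene. Levels of different genes can be compared only per length. On the scale of CPM per kilobase of exon, the order of the core subunits in the KDM4A plasmid libraries ran from PSMB1 (418) and PSMB4 (371) through PSMA7 (312), PSMA3 (286), PSMB7 (281) and PSMB3 (251) to PSMB6 (170), PSMB5 (160) and PSMA4 (126). PSMA5 (74.7), PSMB2 (53.2) and PSMA1 (39.3) followed, and PSMA6 (4.68) and PSMA2 (1.86) came last. In the control libraries PSMB1 was again first (264) and PSMA6 and PSMA2 were last (3.07 and 2.27). The regulatory particle subunits ranged from 42.9 to 205 CPM per kilobase with the KDM4A plasmid and from 30.5 to 166 with the control plasmid.

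Some members share exon sequence with other annotated genes. In GENCODE release 29, 81.0% of the bases of PSMA6's principal transcript lie in exons of another gene on the same strand, AL121594.1, a protein-coding entry with 0 to 4 counts per library. The same holds for 53.2% of PSMA1 (AC018523.2, 0 counts), 52.5% of PSMA2 (AC010132.3, 0 or 1 counts), 45.3% of PSMB10 (AC040162.1) and 43.8% of PSMD9 (AC069503.2 and WDR66). For every other member this share was at most 0.071%. The 5 sharing genes had 1.75 to 39.3 CPM per kilobase with the KDM4A plasmid and 0.256 to 18.5 with the control plasmid. Among the 28 core and regulatory particle subunits without such sharing, the lowest level was 42.9 CPM per kilobase with the KDM4A plasmid. It was 30.5 with the control plasmid. PSMA1, PSMA2 and PSMA6 were below these, at 39.3, 1.86 and 4.68 with the KDM4A plasmid and 18.5, 2.27 and 3.07 with the control plasmid. In genes outside both particles, low levels also occurred without such sharing. PSMD5 was at 12.7 CPM per kilobase with the KDM4A plasmid and 0.913 with the control plasmid. PSMF1 was at 14.2 and PSME4 at 23.1 CPM per kilobase with the KDM4A plasmid, and PSMA8 and PSMB11 were near 0. No label or header says how reads in shared exons were counted, and the part of this sharing in the counts was not tested. Levels and changes of these 5 genes are therefore uncertain.

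**Figure D2:**
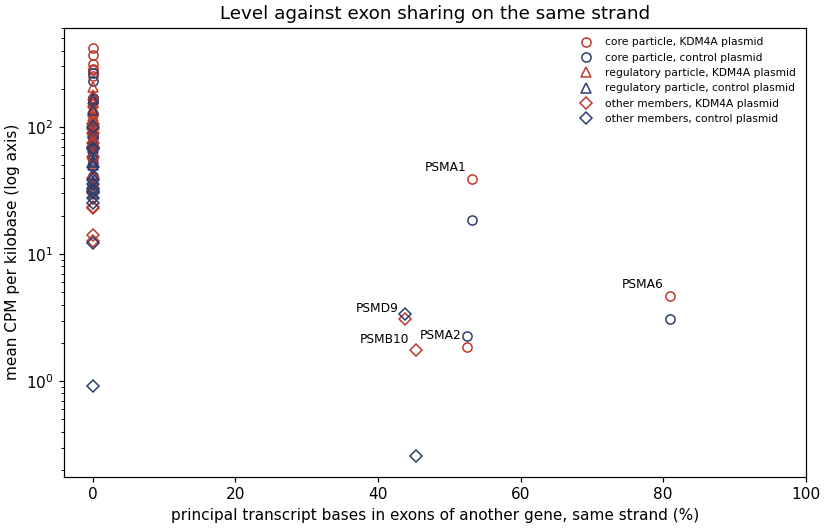
Mean CPM per kilobase of exon (log axis) of the proteasome genes against the percentage of principal transcript bases that lie in exons of another gene on the same strand, for the KDM4A plasmid and the control plasmid. PSMA6, PSMA1, PSMA2, PSMB10 and PSMD9 stand alone at 43.8% to 81.0%, and PSMA8 and PSMB11 are not drawn.

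Sharing on the opposite strand was also present. It covered 82.1% of PSMC1 (with NRDE2), 54.4% of PSMC3IP (with MLX), 50.4% of PSMD7 and 27.2% of PSMC5 (with FTSJ3). Smaller shares were 17.3% of PSMG2 (with CEP76), 15.9% of PSMD13 (with SIRT3) and 12.0% of PSME2 (with RNF31). PSMD11 had 8.6% and PSMD14 8.1%, and every other member at most 1.61%. No label or header says whether strand was used in counting, so reads of these pairs may not be separated. MLX was higher, and NRDE2, FTSJ3, CEP76, SIRT3 and RNF31 did not pass the test. AC009120.2, opposite PSMD7, and AC009299.3, opposite PSMD14, were lower.

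The regulatory particle rose as well. Of its 17 subunits, 16 were higher in the KDM4A plasmid libraries, beside 40.0% of all tested genes, and 0 were lower in edgeR, DESeq2 or limma-voom, adjusted or unadjusted. The median log2 fold change was 0.53 (1.44-fold). Of the 17, 6 changed by at least 1.5-fold and 0 by at least 2-fold, and for 15 the groups did not overlap, beside 79.7% of all tested genes.

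All 6 ATPases of the base were higher, beside 40.0% of all tested genes, with a median log2 fold change of 0.60. PSMC5 (RPT6; chromosome 17, 63827152 to 63832026, plus strand) had 241, 243 and 234 CPM in the KDM4A plasmid libraries, against 138, 135 and 152 CPM in the control libraries, for a log2 fold change of 0.76 (edgeR adjusted p = 8.25e-10, SE 0.06). PSMC3 (RPT5; chromosome 11, 47418769 to 47426473, minus strand) had 239, 243 and 237 CPM with the KDM4A plasmid and 140, 136 and 151 CPM with the control plasmid, for a log2 fold change of 0.75 (edgeR adjusted p = 6.58e-10, SE 0.05). In both genes the groups were well apart. PSMC4, PSMC1, PSMC6 and PSMC2 rose by 0.68, 0.53, 0.51 and 0.41 on the log2 scale.

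The other 3 subunits of the base were higher too, beside 40.0% of all tested genes, with a median log2 fold change of 0.35. PSMD2 (RPN1, a scaffold that docks shuttle factors) had 342, 349 and 342 CPM in the KDM4A plasmid libraries and 241, 228 and 233 CPM in the control libraries, for a log2 fold change of 0.56 (edgeR adjusted p = 1.41e-08, SE 0.05). PSMD1 (RPN2, the other scaffold) had 269, 251 and 253 CPM with the KDM4A plasmid and 194, 197 and 215 CPM with the control plasmid, for a log2 fold change of 0.35 (edgeR adjusted p = 1.70e-05, SE 0.06). The groups did not overlap in either gene. PSMD4 (RPN10, a ubiquitin receptor) rose by 0.31 on the log2 scale (SE 0.05, edgeR adjusted p = 3.19e-05). That call did not hold with the trend on gene length removed, where its log2 fold change was -0.01, nor against a 1.2-fold minimum.

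In the lid, 7 of 8 subunits were higher, beside 40.0% of all tested genes, with a median log2 fold change of 0.52. PSMD3 (RPN3; chromosome 17, 39980807 to 39997959, plus strand) had 148, 160 and 163 CPM in the KDM4A plasmid libraries, against 88.6, 78.6 and 75.0 CPM in the control libraries, for a log2 fold change of 0.96 (edgeR adjusted p = 2.46e-10, SE 0.06). PSMD13 (RPN9; chromosome 11, 236966 to 252984, plus strand) had 196, 199 and 193 CPM with the KDM4A plasmid and 111, 102 and 114 CPM with the control plasmid, for a log2 fold change of 0.85 (edgeR adjusted p = 1.46e-10, SE 0.05). These were the largest changes among the 17 regulatory particle subunits with a PSM symbol. PSMD14, the deubiquitinase RPN11 that cuts the chain from the substrate, rose by 0.59 on the log2 scale and its partner PSMD7 (RPN8) by 0.43. PSMD8 and PSMD11 rose by 0.55 and 0.49.

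At the low end of the lid, PSMD6 (RPN7) had 227, 213 and 205 CPM in the KDM4A plasmid libraries and 174, 175 and 208 CPM in the control libraries. The groups overlapped, and the log2 fold change was 0.21 (SE 0.07, edgeR adjusted p = 0.00882). Without control replicate 1 or control replicate 2 the call was lost, with log2 fold changes of 0.15 (edgeR adjusted p = 0.0657) and 0.16 (edgeR adjusted p = 0.0573). It was not called against a 1.2-fold minimum, and its direction turned with the length trend removed (-0.11, edgeR adjusted p = 0.15). PSMD12 (RPN5; chromosome 17, 67337916 to 67366605, minus strand), whose upstream DNA is printed above, had 237, 224 and 216 CPM with the KDM4A plasmid and 211, 211 and 231 CPM with the control plasmid. Its groups overlapped too, and it did not pass the test (log2 fold change 0.05, SE 0.06, edgeR adjusted p = 0.403). With the trend on length, or the trends on GC content and length, removed it was called higher, at log2 fold changes of 0.23 and 0.57.

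**Figure D3:**
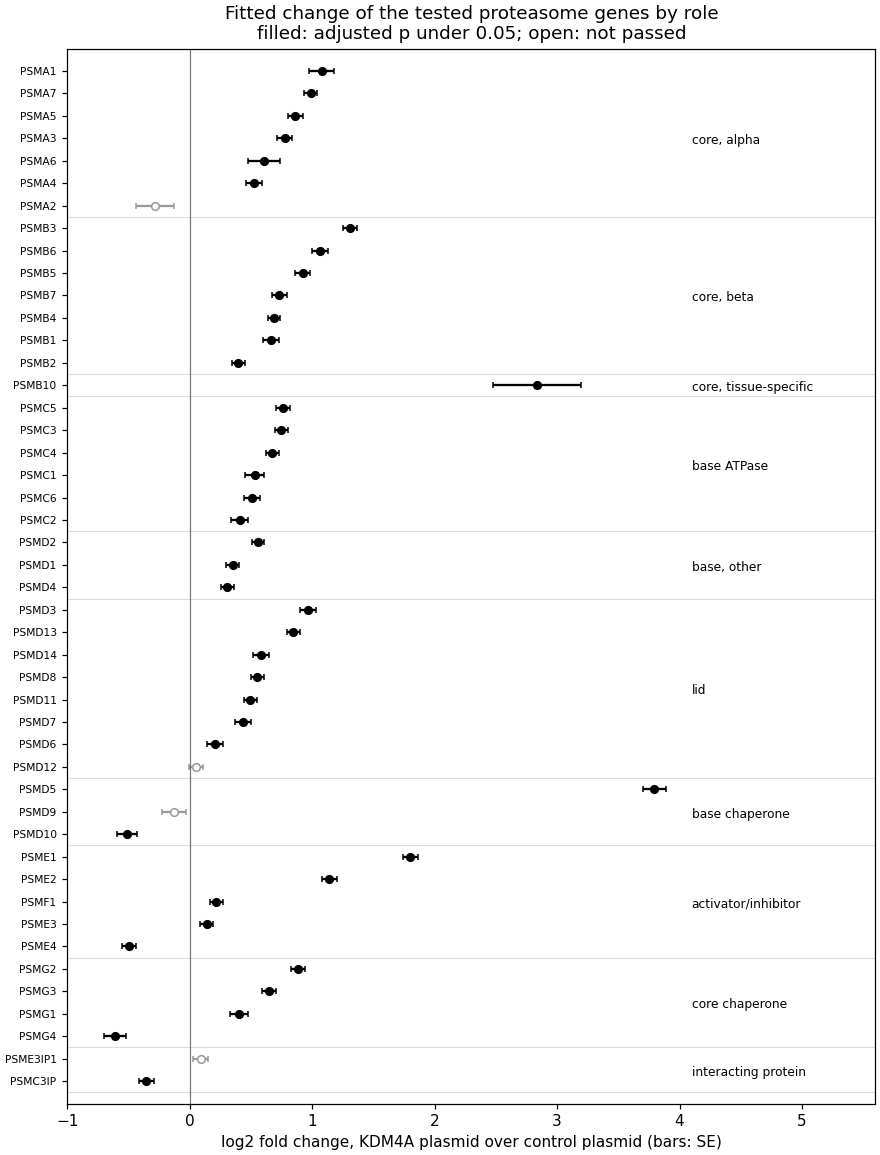
Fitted log2 fold change (KDM4A plasmid over control plasmid, bars are SE) of the 46 tested proteasome genes, grouped by role, with filled points for adjusted p under 0.05 and open points for genes that did not pass. Core subunits centre on 0.75 and regulatory particle subunits on 0.53, while the chaperones, activators and partners spread from -0.61 to 3.79.

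To set the particles side by side within a library, CPM per kilobase was summed over the subunits of each. The core sum was 2547, 2548 and 2557 in the KDM4A plasmid libraries, against 1417, 1382 and 1547 in the control libraries, a ratio of group means of 1.76. The regulatory particle sum was 1924, 1910 and 1877 with the KDM4A plasmid and 1298, 1267 and 1416 with the control plasmid, a ratio of 1.43. Both sums were thus higher in every KDM4A plasmid library than in any control library. The core sum divided by the regulatory particle sum was 1.32, 1.33 and 1.36 (mean 1.34 ± 0.0199, SD, n = 3) in the KDM4A plasmid libraries, against 1.09 in each control library (mean 1.09 ± 0.00116, SD, n = 3). This ratio did not overlap between the groups, and the log2 difference of its means was 0.30; it is given as a description with no test, and the gap between the particles' medians narrows with base composition and length modelled, as given below. The difference was 0.24 when CPM was not divided by length and 0.21 when log2 CPM was averaged over the subunits.

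**Figure D4:**
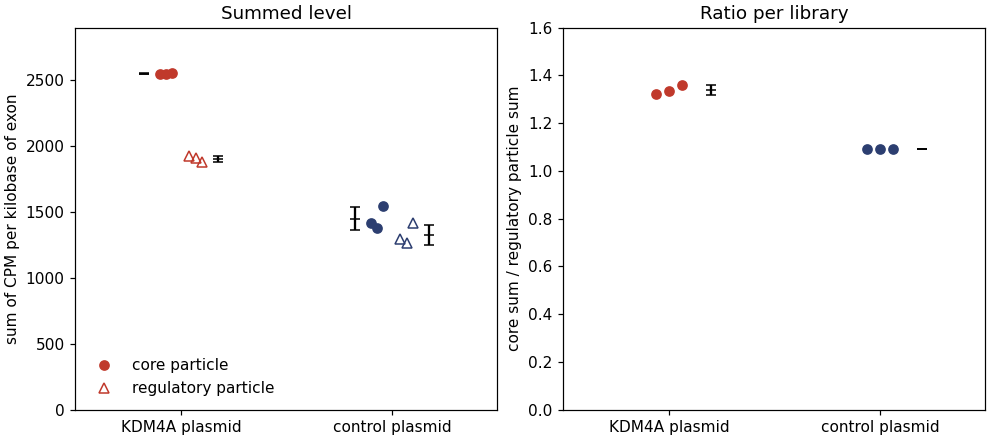
Sum of CPM per kilobase of exon over the 14 core and the 17 regulatory particle subunits (left), and the core sum divided by the regulatory particle sum (right), in each of the 3 KDM4A plasmid and 3 control libraries, with the group mean and SD as a black bar beside the points. The ratio lies at 1.32 to 1.36 with the KDM4A plasmid and at 1.09 with the control plasmid.

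Across genes the median log2 fold change of the core particle exceeded that of the regulatory particle by 0.22. The particles also differ in the base composition and length of their genes. The core genes had a median GC content of 44.9% and a median exon length of 1003.5 bases, the regulatory particle genes 47.9% and 1754 bases, and all tested genes 48.3% and 2866 bases. With the trends of fold change on GC content and length removed together, an alternative added after the data were seen, the gap was 0.08 and the medians were 0.65 for the core and 0.57 for the regulatory particle. With the length trend alone removed, the medians were 0.59 and 0.36 and the gap stayed at 0.22. In both alternatives at least 12 of 14 core subunits and 15 of 17 regulatory particle subunits were called higher.

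The core subunits found in particular tissues were near the limit of detection. PSMB10 (beta2i, the immunoproteasome counterpart of PSMB7; chromosome 16, 67934506 to 67936864, minus strand) had 32, 49 and 17 counts in the KDM4A plasmid libraries and 8, 4 and 3 counts in the control libraries. In CPM these were 1.86, 2.07 and 1.198 with the KDM4A plasmid and 0.422, 0.197 and 0.131 with the control plasmid, for a log2 fold change of 2.83 (edgeR adjusted p = 1.19e-06, SE 0.36). The groups did not overlap, but the gene passed the filter through its KDM4A plasmid libraries and is among those that share exons. PSMA8 (alpha4s, of the testis) had 0, 0 and 1 counts with the KDM4A plasmid and 1, 2 and 5 counts with the control plasmid. PSMB11 (beta5t, of the thymus) had 1, 0 and 0 counts with the KDM4A plasmid and 0 in every control library. Neither was detectable as a change at this depth.

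The largest change of any proteasome gene was in a chaperone and not in a subunit. PSMD5 (S5b, which helps assemble the base; ENSG00000095261, chromosome 9, 120815496 to 120842951, minus strand) had 45.8, 41.5 and 41.5 CPM in the KDM4A plasmid libraries, against 3.01, 3.06 and 3.20 CPM in the control libraries. The libraries of each group were tight and far apart. The log2 fold change was 3.79 (SE 0.09, edgeR adjusted p = 3.73e-16), or 13.9-fold, and 493 of the 17147 tested genes had a fold change at least as high. The other base chaperones did not follow it. PSMD10 (gankyrin; chromosome X, 108084207 to 108091549, minus strand) had 107, 105 and 97.0 CPM with the KDM4A plasmid and 132, 138 and 171 CPM with the control plasmid, lower in every library, for a log2 fold change of -0.51 (edgeR adjusted p = 2.51e-05, SE 0.08). PSMD9 (p27) had 8.31, 8.12 and 8.67 CPM with the KDM4A plasmid and 9.23, 9.18 and 8.98 CPM with the control plasmid. It did not pass the test (log2 fold change -0.13, SE 0.10, edgeR adjusted p = 0.229). With the length trend removed PSMD9 was called lower (-0.23, edgeR adjusted p = 0.0448), as with the GC and length trends removed (-0.22, edgeR adjusted p = 0.048).

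The chaperones that build the core were split. PSMG2 (PAC2) had 63.0, 61.7 and 61.5 CPM in the KDM4A plasmid libraries, against 33.1, 32.5 and 35.2 CPM in the control libraries, for a log2 fold change of 0.89 (edgeR adjusted p = 1.63e-10, SE 0.06). Its partner in the cell, PSMG1 (PAC1), rose by 0.40. PSMG3 (PAC3) had 55.4, 57.8 and 56.4 CPM with the KDM4A plasmid and 36.8, 34.8 and 36.7 CPM with the control plasmid, for a log2 fold change of 0.65 (edgeR adjusted p = 9.68e-09, SE 0.06). PSMG4 (PAC4), with which PSMG3 forms a pair, went the other way. It had 16.2, 17.9 and 20.9 CPM in the KDM4A plasmid libraries and 29.1, 28.5 and 26.0 CPM in the control libraries, for a log2 fold change of -0.61 (edgeR adjusted p = 5.55e-06, SE 0.09). Each of these genes had groups that did not overlap, as did 79.7% of all tested genes. The rise of PSMG1 was not called with the length trend removed (log2 fold change 0.14), nor that of PSMG3 with the GC and length trends removed (0.09).

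The activators that can cap the core in place of the regulatory particle were split as well. PSME1 and PSME2 encode the subunits of PA28, known for its role in antigen processing, and are neighbours on chromosome 14 (24136163 to 24138967, plus strand, and 24143362 to 24147570, minus strand). PSME1 had 95.2, 92.3 and 90.6 CPM in the KDM4A plasmid libraries, against 25.1, 26.3 and 28.3 CPM in the control libraries, for a log2 fold change of 1.80 (edgeR adjusted p = 2.28e-14, SE 0.06). PSME2 had 84.3, 80.4 and 88.9 CPM with the KDM4A plasmid and 36.3, 37.8 and 40.6 CPM with the control plasmid, for a log2 fold change of 1.14 (edgeR adjusted p = 1.26e-11, SE 0.06). After PSMD5 and PSMB10, PSME1 had the largest rise among all proteasome genes tested. PSME4 (PA200, a nuclear activator; chromosome 2, 53864069 to 53970993, minus strand) was lower, with 175, 163 and 163 CPM in the KDM4A plasmid libraries and 241, 242 and 225 CPM in the control libraries, for a log2 fold change of -0.50 (edgeR adjusted p = 1.64e-07, SE 0.05). PSME4 has a long transcript, and its fall was not called with the length trend removed (log2 fold change -0.02, edgeR adjusted p = 0.739) and reversed with the GC and length trends removed (0.13, edgeR adjusted p = 0.0349).

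PSME3 (PA28 gamma, a nuclear activator) had 245, 238 and 234 CPM with the KDM4A plasmid and 216, 221 and 215 CPM with the control plasmid, for a log2 fold change of 0.14 (edgeR adjusted p = 0.0178, SE 0.05). Its groups did not overlap, yet the call was lost without KDM4A plasmid replicate 1 (log2 fold change 0.13, edgeR adjusted p = 0.0526), KDM4A plasmid replicate 2 (0.14, edgeR adjusted p = 0.0534) or control replicate 1 (0.12, edgeR adjusted p = 0.0694). It was lost as well with the replicate block (edgeR adjusted p = 0.0721), with library totals only (edgeR adjusted p = 0.0671) and against a 1.2-fold minimum (edgeR adjusted p = 0.989). PSMF1 (PI31, which inhibits the core in vitro) rose by 0.22 on the log2 scale (SE 0.05, edgeR adjusted p = 0.000811) and was not called against a 1.2-fold minimum. Neither of the binding partners that are not subunits was called higher. PSMC3IP (HOP2, a factor of meiotic recombination) had 43.7, 39.1 and 39.3 CPM in the KDM4A plasmid libraries and 51.5, 49.3 and 55.0 CPM in the control libraries, for a log2 fold change of -0.35 (edgeR adjusted p = 7.64e-05, SE 0.06). PSME3IP1, which binds PSME3, overlapped between groups and did not pass (log2 fold change 0.09, edgeR adjusted p = 0.175). It passed without control replicate 3 (0.13, edgeR adjusted p = 0.0249) and with the GC and length trends removed (0.16, edgeR adjusted p = 0.0187).

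Genes that work with the proteasome but carry other symbols were taken from 4 lists. Of their 41 genes, all tested, 23 were higher in the KDM4A plasmid libraries, beside 40.0% of all tested genes, 11 were lower, beside 38.6%, and 7 did not pass. Of 12 genes for associated proteins, 6 were higher and 4 lower, with a median log2 fold change of 0.26. POMP, the maturation factor of the core particle, had 391, 362 and 371 CPM with the KDM4A plasmid, against 129, 129 and 164 CPM with the control plasmid, for a log2 fold change of 1.41 (edgeR adjusted p = 6.21e-11, SE 0.08). TXNL1, a thioredoxin-like protein bound to the regulatory particle, had 128, 116 and 119 CPM with the KDM4A plasmid and 43.2, 40.5 and 44.5 CPM with the control plasmid, for a log2 fold change of 1.504 (edgeR adjusted p = 2.73e-13, SE 0.06). Both lay apart from the control libraries in every library. The largest falls were in UCHL5, a deubiquitinase of the regulatory particle (log2 fold change -0.79), and UBE3C, a ubiquitin ligase that binds the proteasome (-0.73). The fall of UCHL5 was not called with the GC and length trends removed (-0.11). Chosen after their values were seen, the subunits of the regulatory particle without a PSM symbol also rose, ADRM1 (RPN13, the ubiquitin receptor to which UCHL5 binds) by 1.19 and SEM1 by 0.77 on the log2 scale.

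Of 10 genes for NRF1, NRF2 and their processing, 6 were higher (40.0% of all tested genes) and 3 lower (38.6%), with a median log2 fold change of 0.30. MAFF, a small MAF protein, had 31.2, 31.3 and 32.8 CPM in the KDM4A plasmid libraries, against 3.27, 3.95 and 4.34 CPM in the control libraries, for a log2 fold change of 3.03 (edgeR adjusted p = 1.86e-14, SE 0.10). KEAP1, the adaptor that targets NRF2 for degradation, rose by 1.504. DDI2, the protease that cleaves NRF1, had 68.2, 66.7 and 65.8 CPM with the KDM4A plasmid and 131, 146 and 126 CPM with the control plasmid, for a log2 fold change of -1.01 (edgeR adjusted p = 5.49e-11, SE 0.06). SEL1L, of the ER degradation complex, was at -1.10. Thus the list held changes of both signs, with no overlap between groups in the genes named (79.7% of all tested genes). NFE2L1 itself, named after its values were seen, had 153, 157 and 156 CPM with the KDM4A plasmid and 120, 115 and 112 CPM with the control plasmid, for a log2 fold change of 0.42 (edgeR adjusted p = 6.67e-07, SE 0.05). Processing and activity of the NRF1 protein are not visible in RNA counts.

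Of 7 genes for ubiquitin, its activating enzymes and its recycling, 5 were higher (40.0% of all tested genes) and 1 was lower (38.6%), with a median log2 fold change of 0.49. USP5, which recycles free ubiquitin chains, rose by 0.83, while the activating enzyme gene UBA6 was at -0.61. UBA6 was not lower with the length trend removed (0.02) and was higher with the GC and length trends removed (0.32, edgeR adjusted p = 6.66e-05). Of 12 genes for shuttle factors and the VCP complex, 6 were higher and 3 lower, beside the same shares, with a median log2 fold change of 0.16. VCP, the ATPase that extracts ubiquitin-tagged proteins, had 378, 389 and 374 CPM with the KDM4A plasmid, against 192, 187 and 189 CPM with the control plasmid, for a log2 fold change of 1.01 (edgeR adjusted p = 4.42e-12, SE 0.05), with the groups far apart. FAF2 and UBQLN2 were at -0.31 and -0.19. With the GC and length trends removed, FAF2 (-0.03) was no longer called and UBQLN2 reversed without passing (0.12).

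**Figure D5:**
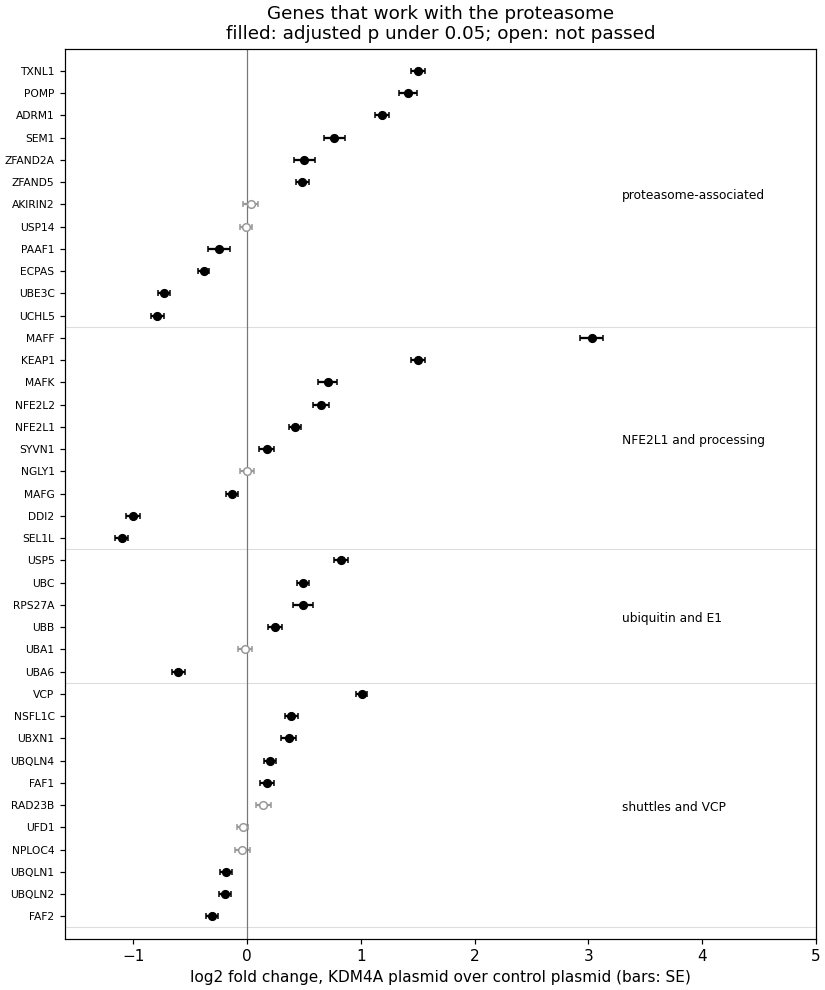
Fitted log2 fold change (KDM4A plasmid over control plasmid, bars are SE) of 39 of the 41 tested genes of the 4 lists of proteasome partners, with filled points for adjusted p under 0.05 and open points for genes that did not pass. MAFF at 3.03 and SEL1L at -1.10 mark the range, and POMP, TXNL1 and KEAP1 lie between 1.41 and 1.504.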

How the data were processed

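The deposited table holds raw read counts for 60664 genes in 6 libraries. Exon lengths and GRCh38.p13 locations stand beside them, per the file headers. HISAT2, HTSeq and the GRCh38 build are named in the submitters' processing notes. Their versions, the strand setting and the counting mode were not given in the sources used here. As far as the values show, the authors applied no normalization to these counts, and 0 rows were totals without a gene name. Total RNA was taken with Trizol and made into mRNA libraries, per the labels' protocols.

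Genes were filtered with filterByExpr (minimum count 10), which left 17147. The main test was edgeR 4.0.16's quasi-likelihood test (robust, TMM factors of 0.970 to 1.03) on 3 against 3 libraries with no covariate, with Benjamini-Hochberg adjustment over all 17147 genes and a threshold of 0.05. Log2 fold changes are KDM4A plasmid over control plasmid. The common coefficient of variation was 5.65%. CPM values are scaled by library total and TMM factor, per kilobase values divide by the deposited exon length, and errors are SD over 3 libraries or the SE of the fit. The fit was tested on simulated data of 16807 genes, with 50 genes changed at each of 1.5-, 2-, 4- and 8-fold. It recovered 86% of those changed 1.5-fold, 96% at 2-fold and 100% at 4- and 8-fold. Of its 207 calls, 16 were unchanged genes. Few genes were changed in that test, whereas 78.6% of tested genes were called in these data.

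Alternatives were a replicate block, DESeq2 1.42.0, limma-voom (limma 3.58.1), other scalings and filters, a test against 1.2-fold, removal of a loess trend on gene length (span 0.5), and leaving out each library. A GC and length trend (GC content known for 99.1% of tested genes) and a count without PSMA1, PSMA2 and PSMA6 were added after the data were seen. Deviations from the group mean in libraries of the same replicate number had correlations of -0.148, 0.0338 and -0.0913. Libraries of unlike number had -0.0992 to 0.175. With 3 libraries per group, these values cannot show whether the samples were paired. Exon sharing was read from GENCODE release 29 principal transcripts, and promoter windows from RefSeq on GRCh38.p14. Members, lists and motifs were chosen with earlier results of these data known. The text names the catalytic subunits, KDM4A and, per role class and partner list, up to 4 genes that passed (the top 2 in each direction); 2 partner genes this rule selects are left unreported, every other member is accounted for by role, and other partner genes are marked as chosen later.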

Additional observations from a re-analysis of the deposited data

How the results depend on the processing

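Of 46 tested members, 34 kept their call and direction in all 18 alternative fits, 12 changed call in some, and 3 reversed. The counts of core and regulatory particle subunits called higher stayed at 12 or more and 14 or more in all of these fits. With the length trend removed, 1 core subunit (PSMA2, -0.59) was lower, and the medians were 0.59 for the core and 0.36 for the regulatory particle. With GC and length trends removed, the core median was 0.65 and the gap between the medians 0.0794. The reversed members were PSMD4 (-0.0143 and, with GC, -0.0608), PSMD6 (-0.11, length) and PSME4 (0.13, GC and length). Among partner genes, reversal was checked only for those picked by the naming rule or after their values were seen. Of these, UBB (-0.0855 and -0.1066), UBA6 (0.0246 and 0.323) and UBQLN2 (0.12) reversed. Partner genes called lower numbered 6 against 1.2-fold and 7 with GC and length trends removed, and 9 or 10 when a library was left out. Dividing by no length gave a ratio difference of 0.24, and averaging log2 CPM gave 0.21. Without PSMA1, PSMA2 and PSMA6, 11 of 11 core subunits were higher, beside 40.0% of all tested genes. Their median was then 0.78, the gap 0.25 and the ratio difference 0.29. Leaving out a library gave core medians of 0.70 to 0.82, regulatory particle medians of 0.45 to 0.55, a gap of 0.20 to 0.28 and a ratio difference of 0.28 to 0.30. With the replicate block, 37 members were higher and 4 lower, the medians were 0.76 and 0.54, and PSME3 was no longer called (edgeR adjusted p = 0.0721); 13 core and 16 regulatory particle subunits were called higher, 22 partner genes higher and 10 lower. With no filter the median of all genes was 0.12; in the other fits it lay between -0.02 and 0.03. The cause of these changes was not tested. PSMA8 and PSMB11 had too few counts for a test, and PSMB10 is limited by its 3 to 8 control counts.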

Other observations

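Genes beside PSMD5 on chromosome 9, looked at after its values were seen, changed in both directions. CUTALP, a pseudogene on the opposite strand whose span overlaps PSMD5, had 9.88, 10.2 and 9.65 CPM in the KDM4A plasmid libraries, against 1.32, 1.33 and 1.62 CPM in the control libraries, for a log2 fold change of 2.79 (edgeR adjusted p = 4.66e-12, SE 0.14). PHF19 and C5, on the side of PSMD5's start, were at log2 fold changes of 1.15 and 1.51, and TRAF1 between them did not pass the test (0.01, edgeR adjusted p = 0.977). On the other side, FBXW2, B3GALT9 and MEGF9 were at -0.57, -1.55 and -0.94. PSMD5's own log2 fold change was 3.79.

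Pseudogenes with the same name pattern numbered 42, of which 25 had 0 counts in every library. Together they held 2464 counts, 0.305% of the 807834 counts of the 48 proteasome genes. PSMA6P1 held 124, 113 and 74 counts in the KDM4A plasmid libraries, against 73, 60 and 94 in the control libraries, more than PSMA6 itself in 5 of the 6 libraries (84, 111 and 68 with the KDM4A plasmid and 60, 63 and 72 with the control plasmid). Its log2 fold change was 0.64 (edgeR adjusted p = 0.00236), against 0.60 for PSMA6. Of the 6 pseudogenes with at least 50 counts in all, 5 were called higher, beside 40.0% of all tested genes. Reads of such copies may not be separated, and their sequences were not compared with those of the proteasome genes.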
